A study of Mus musculus with 12 samples.

Results

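The cells described are those labelled as haematopoietic stem cells of the mouse aorta-gonad-mesonephros region (AGM), taken 1 by 1. Every well of the 2 plates with that label was used if it held 1000 genes and 3000 unique molecular identifiers (UMIs) or more, with mitochondrial genes under 20% of them. This kept 143 of 192 AGM wells, 95 on plate 1 and 48 on plate 2, among 1020 kept of 1152 wells in the whole series. Fetal liver gave 454 kept cells from 2 origin codes, E1 and E6, and bone marrow gave 423 from 2 more, LL731 and LL901. Both AGM plates carry a single origin code, and the labels do not say whether it is an embryo or a pool. The labels give no stage, strain, sex, treatment, surface markers or genotype of any of these groups, and the series' design text names the DARLIN and Cas9/CARLIN barcoding mouse lines for the study as a whole. Nuclei had been removed on magnetic beads, per the labels' protocols, so the RNA measured was meant to be cytoplasmic. The 2 plates are not known to be separate animals, so a value repeated on both shows only that it was seen in both sets of wells.

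The AGM is the part of the embryo around the dorsal aorta in which definitive blood stem cells first arise. They form from haemogenic endothelium, flat cells of the vessel wall that round up and enter the blood under the transcription factor Runx1. Such cells pass through a state in which endothelial genes, arterial genes and blood genes are found together, and they later move to the fetal liver and then to the bone marrow.

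The kept AGM cells held 24323995 UMIs, with a median of 155534 per cell on plate 1 (range 22875 to 461103) and of 165904 on plate 2 (3738 to 393871). The median number of genes per cell was 5372 on plate 1 and 5699.5 on plate 2. Each gene's level below is in CPM, its UMIs scaled to counts per 1000000 UMIs of the cell, and a mean level is the mean over cells of each plate, averaged over the 2 plates. For the agreement of the 2 plates, UMIs were summed over each plate's cells and scaled to CPM. The log2 of these levels had a Pearson r of 0.92 across 10823 genes with at least 1 CPM on both plates, which are not independent replicates. Of these 10823 genes, 477 differed over 4-fold between the plates. Among the 4106 of them at 50 CPM or more on at least 1 plate, 15 did. All 48 barcodes of plate 2's kept cells occurred on plate 1 as well, so cells were told apart by plate.

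Low counts were frequent and held little of the RNA. Of all non-zero counts, 33% on plate 1 and 35.5% on plate 2 were of 1 or 2 UMIs, and together these held 1.34% and 1.46% of the UMIs. A gene was therefore counted as found in a cell at 5 or more UMIs, a limit chosen after the data were seen. Some genes were also found in most cells of 1 plate and in few cells of the other. Hbb-y, an embryonic globin, was found in 71 of 95 cells on plate 1 and in 1 of 48 on plate 2. On plate 1, 1 cell held 751 Hbb-y UMIs (45.1% of that plate's total), the next held 170, and the other cells a median of 7. Ccl3, an inflammatory chemokine, was found in 42 of 48 cells on plate 2 and in 1 of 95 on plate 1, with 477 UMIs in the top cell, 35 in the next and a median of 13 in the others. Cpa3, a mast cell protease, was found in 31 of 48 cells on plate 2 and 4 of 95 on plate 1, with 374 UMIs in the top cell, 186 in the next and a median of 6 in the others. Plate 1 still held 436 Cpa3 UMIs. In each case the plate where the gene was frequent held at least 1 very high cell and low counts in most of its other wells. The medians of 7, 13 and 6 UMIs pass the limit of 5, so such low counts are included in the cells counted as found. Transfer of RNA between wells was not tested.

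**Figure D1:**
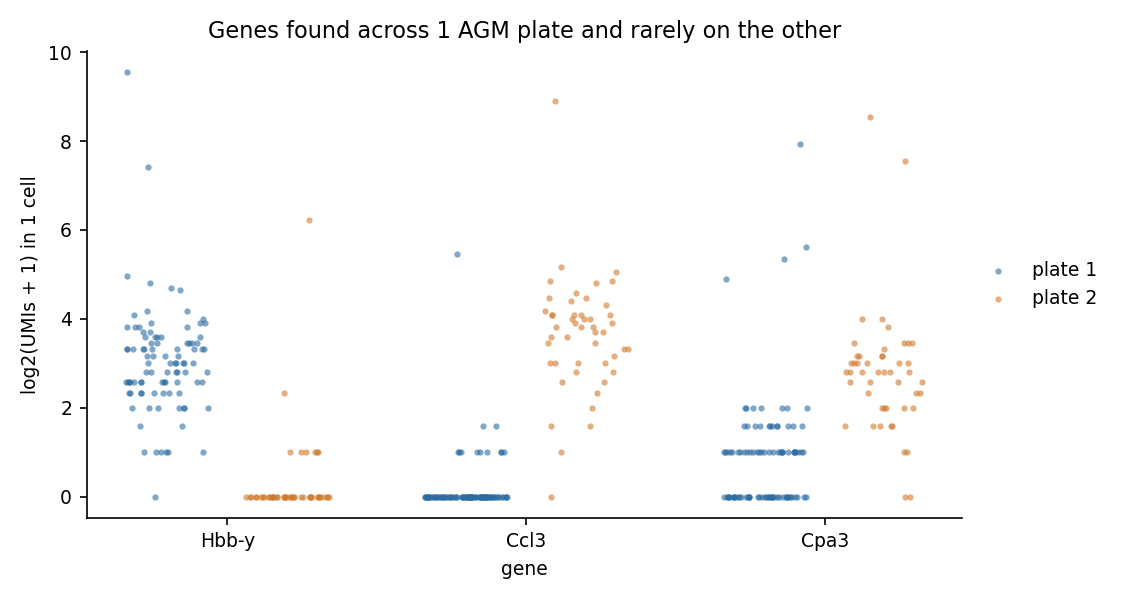
UMIs per cell on a log2(UMIs + 1) axis for Hbb-y, Ccl3 and Cpa3, with 1 point per kept AGM cell, coloured by plate. On the plate where the gene is frequent, the highest cell stands far above a band of low counts, with 751 UMIs for Hbb-y, 477 for Ccl3 and 374 for Cpa3.

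Xist and Y chromosome transcripts each reached 5 UMIs in a minority of cells, and never both in 1 cell. Xist, the RNA that coats the inactive X, reached 5 UMIs in 16 cells (10 on plate 1 and 6 on plate 2, median 22.5, range 10 to 105). Genes of the Y chromosome together reached 5 UMIs in 17 cells (14 and 3, median 27, range 7 to 60). Of 143 cells 0 reached 5 UMIs of both, which allows a share of up to 2.55% (exact 95% binomial limit, counting error only). The remaining 110 cells stayed under 5 UMIs of each, and 23 of those held 1 to 4 Xist UMIs. Cells of both kinds thus occurred under the single origin code and on each plate. Wells with at least 1 UMI of both numbered 9.

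The most abundant transcripts were those of translation, the cytoskeleton and protein folding. Outside ribosomal protein and mitochondrial genes, the predicted gene Gm42418 led with a mean of 3328 CPM, followed by the predicted gene Gm10076 at 2933, the translation elongation factor Eef1a1 at 2871 and cytoplasmic actin Actb at 2841. Malat1, a long non-coding RNA of the nucleus, came next with 2669 CPM, a median of 2514 and a range of 766.9 to 6956 over cells. The chaperone Hsp90ab1 reached 2501 CPM, the actin-binding Tmsb4x 2153, the ribosomal fusion gene Fau 2136, the nucleolar Npm1 1941, the elongation factor Eef1b2 1822, the folding enzyme Ppia 1781 and the cytokine Mif 1674. All 12 were found in all 143 cells. With ribosomal protein and mitochondrial genes counted in, the single most abundant gene took 0.297% of the UMIs and lay 2.3-fold above the 100th. The 100 most abundant genes together took 19.3% of the UMIs, ribosomal protein genes 17.1% and mitochondrial genes 0.145%. Reads of the predicted genes may be shared with near-identical copies.

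The limit of 5 UMIs left out many of a cell's genes, of which the median cell had 5513 with at least 1 UMI. The median cell had 3150 genes at 5 UMIs or more (range 139 to 5670), and 108 genes reached 5 UMIs in every cell. After each cell was thinned to 20000 UMIs, which left out 2 shallow cells of plate 2, 2448 genes had a UMI in at least 50% of 141 cells and 690 in at least 90%. Without thinning, 4941 genes had a UMI in at least 50% of cells, and 2295 reached 5 UMIs in that share. Other genes came from single cells. The 8 genes most confined to 1 cell, among those with at least 100 UMIs, were Gm47438, Fam83e, Clmn, B230369F24Rik, A230072E10Rik, 2210408F21Rik, Gm45564 and Gm26707, each with 100 to 151 UMIs in all and found in 1 cell.

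Of the 6 genes used to mark these cells, Igf2 was in nearly every cell and the other 5 in 44.1% to 86% of them. Igf2, the imprinted fetal growth factor (GRCm38 chr7:142650766-142666816, minus strand), was found in 141 of 143 cells, with a low, median and high of 141, 1461 and 4071 CPM on plate 1 and 123, 1393 and 2812 on plate 2. Plvap, which forms the diaphragms of endothelial pores (chr8:71497765-71511752, minus strand), was found in 123 cells, with 0, 183 and 1318 CPM on plate 1 and 0, 218 and 786.6 on plate 2. Runx1, which drives the step from endothelium to blood (chr16:92601466-92826149, minus strand), was found in 106 cells, with 0, 131 and 802.5 CPM on plate 1 and 0, 87.4 and 734.4 on plate 2. The levels of these 3 genes overlapped widely between the plates.

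Cdh5, the endothelial junction cadherin (chr8:104101625-104144511, plus strand), was found in 92 cells, 71 of 95 on plate 1 and 21 of 48 on plate 2. Its low, median and high were 0, 90.5 and 809.5 CPM on plate 1 and 0, 32.4 and 477.1 on plate 2. Nrp1, a co-receptor for vascular growth factor and semaphorins (chr8:128358604-128503363, plus strand), was found in 78 cells, with 0, 87.7 and 1198 CPM on plate 1 and 0, 18.6 and 746.9 on plate 2. Gja4, a connexin of arterial endothelium (chr4:127311421-127314039, minus strand), was found in 63 cells, 52 of 95 on plate 1 and 11 of 48 on plate 2, with 0, 26 and 1493 CPM and 0, 7.31 and 1100 CPM. Plate 2 had the lower median for all 3, and the ranges over cells overlapped. The exact 95% binomial interval of the share of cells, which covers counting error only, was 55.9% to 72.2% for Cdh5 and 79.2% to 91.2% for Plvap. Cells holding all 6 genes numbered 24, cells with 5 of them 42, with 4 39, with 3 23, with 2 11, with 1 2 and with none 2. The 2 with none were on plate 2, where the 2 shallowest kept cells held 3738 and 3750 UMIs. The part of depth in these counts was not tested.

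**Figure D2:**
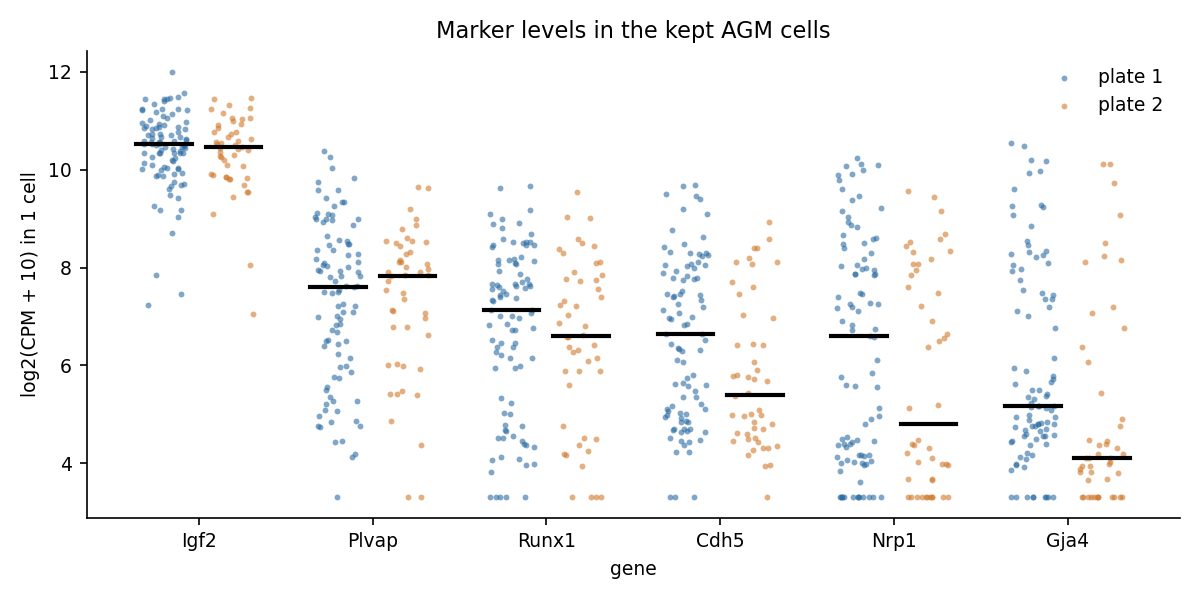
Level of the 6 marker genes in each of 143 AGM cells as log2(CPM + 10), with 1 point per cell, coloured by plate, and a bar at each plate's median. Igf2 is high in almost all cells of both plates (medians of 1461 and 1393 CPM), while Cdh5, Nrp1 and Gja4 run from 0 up to highs of 477.1 to 1493 CPM and have lower medians on plate 2.

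Endothelial genes were frequent over the wider list. Of 27 endothelial junction and surface genes, 17 were found in at least 50% of the cells, and all 27 had AGM UMIs. The secreted vessel factor Egfl7 was in 141 cells (mean 699.7 CPM) and Ramp2, a partner of the adrenomedullin receptor, in 140 (539 CPM). Pecam1, the platelet and endothelial adhesion molecule, was found in 77 of 95 and 34 of 48 cells. Arterial genes were scarcer. Of 18 arterial and Notch genes, 1 was found in at least 50% of the cells, the Notch target Hes1 (95 cells, median 199.8 CPM). The Notch ligand Dll4 was found in 22 of 95 and 4 of 48 cells and the connexin Gja5 in 25 of 95 and 13 of 48. Venous genes were rare, and the most abundant, the receptor Ephb4, was found in 21 cells.

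Blood genes were found in the same cells. Spi1, the myeloid and stem cell factor PU.1, was found in 89 of 95 and 45 of 48 cells, Lyl1, a partner of the blood factor network, in 134 of 143, and the stem cell surface genes Procr in 92 of 95 and 44 of 48 and Cd34 in 87 and 45. Kit, the stem cell factor receptor, was found in 58 of 95 and 35 of 48 cells. Other blood genes were less frequent: Myb was found in 34 and 19 cells, the repressor Gfi1 in 20 and 6, Ptprc (CD45) in 24 and 8, and Itga2b (CD41) in 13 and 6. Counted per cell, a median of 14 of 23 endothelial genes (range 0 to 22) and of 3 of 9 blood genes (0 to 8) were found. At least 3 endothelial and 2 blood genes occurred together in 122 cells, at least 3 endothelial with fewer blood genes in 18, the reverse in 0, and neither in 3. The 3 cells with neither had the lowest UMI totals of all kept AGM cells (3738, 3750 and 22875). The UMI limit for a found gene was the same at every depth, and the part of depth in these classes was not tested. Some genes here are shared by both lineages, and 1 well was taken to be 1 cell without a doublet test.

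Most genes of other tissue cell types were absent or limited to few cells. Of 16 smooth muscle and mesenchyme genes, Myh11, Col3a1 and Cspg4 had no AGM UMI. Acta2, smooth muscle actin, was found in 31 cells and Myl9, a myosin light chain, in 36, yet 79 cells held no gene of the list and 2 held as many as 3. Among the 31 Acta2 cells, Myl9 was found in 8, Tagln in 1, Cnn1, Pdgfra and Pdgfrb in 0, Plvap in 29, Runx1 in 26 and Cdh5 in 19. In the other 112 cells Myl9 was found in 28, so the 2 contractile genes were not paired. Krt8, Nr5a1, Gata4, Sox10, Th, Upk3b and Sox2 of the epithelium, gonad and neural crest list had no UMI, while the keratin Krt18 was found in 97 cells. Rag1, Rag2, Dntt and Cd3e of the lymphoid list had none either, while Lck, a lymphocyte kinase, was found in 29 cells and the B cell receptor gene Cd79b in 28. Of megakaryocyte genes, Gp9 was found in 43 cells and Pf4 in 21, and of erythroid genes carbonic anhydrase Car2 was found in 98 and the globin Hbb-bt in 49.

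Of the myeloid granule genes, Mpo, Lyz2 and Prtn3 were found in most cells. Mpo, the neutrophil peroxidase, was found in 90 of 95 and 45 of 48 cells, with a low, median and high of 2, 23 and 617 UMIs on plate 1 and 1, 16 and 443 on plate 2. Lysozyme, Lyz2, was found in 86 and 42 cells, with medians of 54 and 43.5 UMIs and highs of 203 and 233. Prtn3, a granule protease, was found in 54 and 35 cells, with medians of 6 and 17 UMIs and highs of 245 and 229. Elane was found in 1 cell, and Ctsg, C1qa and Timd4 had no UMI. Mpo reached 50 or more UMIs in 19 of 95 and 12 of 48 cells. Over both plates its top cell held 8.28% of its UMIs, against 42.9% for Hbb-y. The part of well-to-well transfer in the lower Mpo counts was not tested.

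Cells with and without CD45 RNA, the product of Ptprc, were set side by side. Of 32 cells in which Ptprc was found, 7 had Nrp1 and 7 had Gja4, against 71 and 56 of the other 111. Runx1 was found in 24 of the 32 and 82 of the 111, Cdh5 in 18 and 74, Plvap in 24 and 99, and Spi1 in 31 and 103. Myb, a factor of definitive blood progenitors, was found in 17 of the 32 and 36 of the 111. These are counts of cells from 1 origin and carry no test.

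Growth, metabolic and stimulus genes differed in how many cells held them. The growth gene H19, a long non-coding RNA, was found in 141 cells (132.6, 921.4 and 2443 CPM as the low, median and high), while the imprinted Mest was found in 13. Gapdh and Aldoa, enzymes of glycolysis, were found in 142 and 141 cells, and the hexokinase gene Hk2 in 51. The interferon-inducible Ifitm2 and Ifitm3 were each found in 142. Of immediate early genes, Ier2 was found in 108 cells and Jun in 104, with highs of 1582 and 1796 CPM, and Fosb in 7. Fos and Jun had a Spearman rho over cells of 0.08 on plate 1 and 0.28 on plate 2. Among S phase genes the nucleotide enzyme Dut was found in 137 cells and the chromatin remodeller Hells in 103.

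Cell-to-cell spread was described with the mean of each gene held. For each of 3165 genes with a thinned mean of at least 1 UMI on both plates, the variance over the mean (the Fano factor) was set against the median of genes of like mean, and the log2 of that ratio is called the excess. The median Fano factor was 3.54 on plate 1 and 3.4 on plate 2. The excess had a Pearson r of 0.523 between plates across genes. An excess above 1 on both plates was seen for 26 genes. The value was used to choose them, so it is given without a test.

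The replication-dependent histone Hist1h2ae had the widest spread, with an excess of 2.07 on plate 1 and 2.0 on plate 2 (0, 345 and 1910 CPM as the low, median and high over all cells). Hist1h2bc, from the same histone cluster, had 1.47 and 1.45. The inhibitor of differentiation Id3 reached 1.88 and 1.93, with a median of 26.67 CPM and a high of 1781. The Notch target Hes1 reached 1.60 and 1.61, and the arterial connexin Gja4 1.5 and 1.67. Id3 and Gja4 were near 0 in many cells and over 1000 CPM in a few.

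The interferon-inducible Ifitm1 had an excess of 1.51 and 2.0 and was found in all 143 cells (36.5, 690 and 3966 CPM). Rgs2, a brake on G protein signalling, had 1.49 and 1.82, Tnfaip2, a gene induced by tumour necrosis factor, 1.52 and 1.40, and the cell cycle inhibitor Cdkn1a 1.30 and 1.60. Smooth muscle actin Acta2 had 1.53 and 1.40, Lyz2 1.29 and 1.55, and Malat1 1.46 and 1.25. Igf2, found in nearly every cell, had 1.07 and 1.08, with cells between 123 and 4071 CPM. The 26 also held the mitotic genes Ube2c, Cenpf and Nusap1, the replication clamp partner Pclaf, the endothelial genes Ramp2 and Cldn5, the matrix gene Sparc, Mpo, Nupr1, Ccl9, Tyrobp, Hps4 and Btg2. The Fano factor climbed with the mean among the most abundant genes, and the running median of 201 genes blurs that climb, so the excess of Malat1 and Igf2 is set against genes of lower mean. Just outside lay Cenpa (0.99 and 1.17), Rac2 (0.98 and 1.25) and Ddah1 (1.17 and 0.97).

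An excess below -1 on both plates was seen for 6 genes. The proteasome subunit Psmb7 had -1.31 and -1.84, with Fano factors of 1.43 and 0.971, close to the value of 1 that random sampling of molecules gives. The others were Fam221b (-1.33 and -1.22), the cold-shock RNA-binding Rbm3 (-1.21 and -1.40), the ubiquitin-conjugating Ube2n (-1.14 and -1.13), the tetraspanin Tspan4 (-1.18 and -1.05) and the pseudogene Rpl10-ps3 (-1.01 and -1.25). Phpt1, Plp2 and Rbm38 fell just outside.

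**Figure D3:**
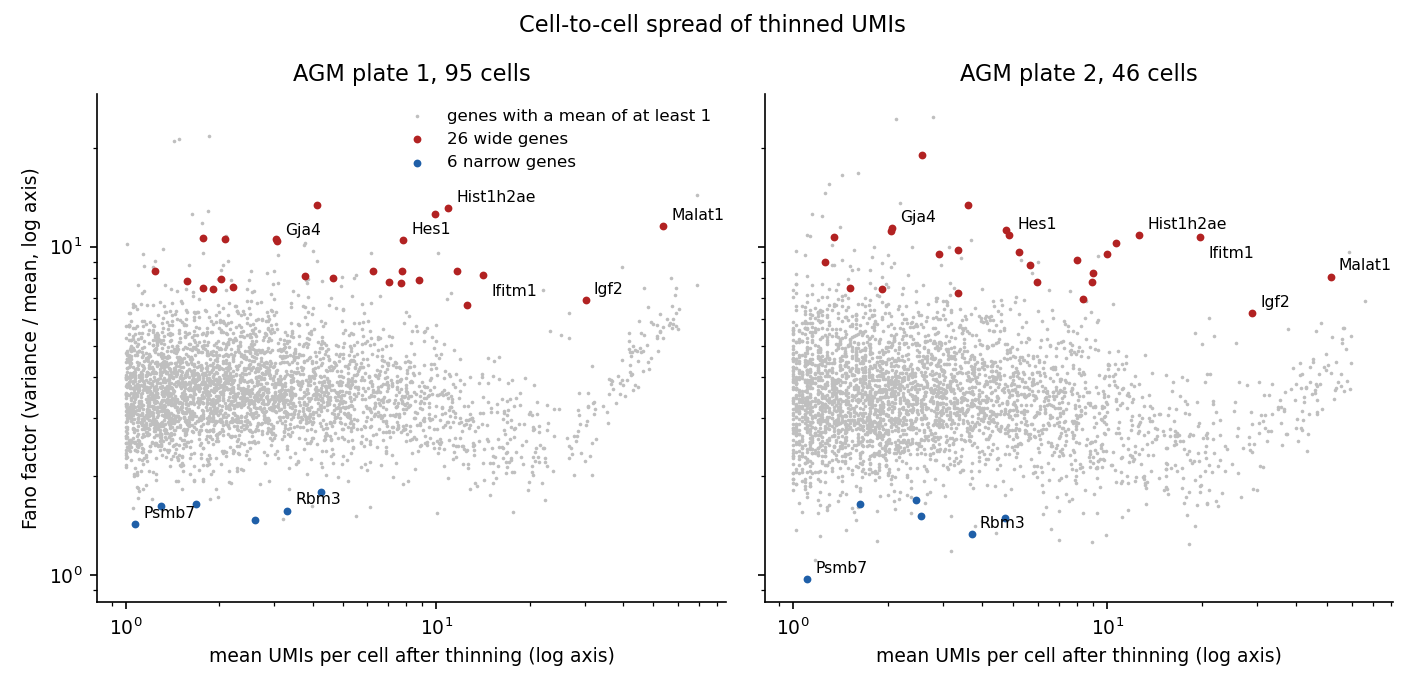
Fano factor against mean, both of UMIs after thinning to 20000 per cell and both on log axes, for each plate, with 1 point per gene of a mean of at least 1, the 26 wide genes in red and the 6 narrow ones in blue. Hist1h2ae, Hes1 and Gja4 lie above the cloud on both plates, and Psmb7 lies at its lower edge.

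Gene pairs were compared by Spearman's rho over cells within each plate, for 3554 genes with a UMI in at least 30% of thinned cells. Of 6313681 pairs, 776, joining 170 genes, had a rho above 0.4 on both plates and 35 had one below -0.4. The median pair stood at 0.019 on plate 1 and 0.012 on plate 2. Cells of 1 plate share their library and differ in depth, so these values are descriptions without a p.

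Mitotic genes made up most of the closest pairs. The survivin gene Birc5 and the mitotic ubiquitin enzyme Ube2c had a rho of 0.70 on plate 1 and 0.67 on plate 2, and both were found in 131 cells. The kinetochore protein gene Cenpf and Ube2c had 0.65 and 0.77, Ckap2l and Nusap1, both of the spindle, 0.69 and 0.66, Cenpe and Cenpf 0.68 and 0.64, and Nusap1 and the topoisomerase Top2a 0.66 and 0.65. The cyclin gene Ccnb1 and Cks2, a cyclin kinase subunit, had 0.62 and 0.67. Both were found in 94 cells, Cks2 alone in 44, Ccnb1 alone in 0 and neither in 5. Over all pairs of the G2 and M phase list the median rho was 0.43 and 0.36, against 0.26 and 0.22 in the S phase list. Mki67, the proliferation antigen, was found in 42 cells, and Top2a was found in 41 of these, Cenpf in 39, Ccnb1 in 39 and Ube2c in 42. In the other 101 cells Top2a was found in 52, Cenpf in 55 and Ube2c in 95. The S phase histone Hist1h2ae paired with Hist1h2ap (0.64 and 0.72) and with Pclaf (0.67 and 0.63). Histone cluster genes are near-identical and can share reads.

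The promoters of 4 mitotic genes of these pairs are printed as examples. Each is the RefSeq window (assembly GRCm38.p6) from 250 bases before to 50 after the gene's start, read 5′ to 3′ on the gene's strand. Capitals mark CCAAT, the box bound by NF-Y, and TTTGAA or TTCGAA, the core of the cell cycle homology element, whether they lie on the printed strand or on the other one. The windows are Ube2c at chr2:164769679-164769978 (plus strand), Cenpf at chr1:189688037-189688336 (minus), Top2a at chr11:99024140-99024439 (minus) and Ccnb1 at chr13:100786437-100786736 (minus).
Ube2c: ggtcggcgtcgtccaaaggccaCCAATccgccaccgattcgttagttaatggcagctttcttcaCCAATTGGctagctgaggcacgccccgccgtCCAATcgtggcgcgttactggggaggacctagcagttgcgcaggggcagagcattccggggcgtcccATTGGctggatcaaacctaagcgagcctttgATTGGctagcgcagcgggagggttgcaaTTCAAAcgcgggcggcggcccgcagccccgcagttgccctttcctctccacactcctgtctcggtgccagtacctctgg
Cenpf: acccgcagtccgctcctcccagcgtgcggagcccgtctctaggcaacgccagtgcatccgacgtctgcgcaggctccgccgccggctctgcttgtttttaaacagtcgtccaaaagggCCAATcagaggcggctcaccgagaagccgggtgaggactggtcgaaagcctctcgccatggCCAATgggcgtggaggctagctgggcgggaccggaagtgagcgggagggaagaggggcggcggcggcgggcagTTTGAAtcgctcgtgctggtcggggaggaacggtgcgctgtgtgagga
Top2a: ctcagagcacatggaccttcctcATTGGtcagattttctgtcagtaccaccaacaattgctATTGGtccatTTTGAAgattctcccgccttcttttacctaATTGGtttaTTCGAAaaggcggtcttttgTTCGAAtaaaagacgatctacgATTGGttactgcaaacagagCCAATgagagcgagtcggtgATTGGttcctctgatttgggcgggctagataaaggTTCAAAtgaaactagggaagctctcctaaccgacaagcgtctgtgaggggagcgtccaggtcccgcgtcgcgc
Ccnb1: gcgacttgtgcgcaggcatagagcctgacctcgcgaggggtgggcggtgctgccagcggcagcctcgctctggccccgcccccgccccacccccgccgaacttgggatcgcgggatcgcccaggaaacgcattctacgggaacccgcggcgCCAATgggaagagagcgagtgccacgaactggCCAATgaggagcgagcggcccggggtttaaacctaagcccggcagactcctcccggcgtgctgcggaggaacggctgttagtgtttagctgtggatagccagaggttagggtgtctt
Ube2c held 6 matches to CCAAT and 1 to the second motif, Cenpf 2 and 1, Top2a 6 and 4, and Ccnb1 2 and 0. Birc5 and Nusap1 of the same pairs, which are not printed, held neither in this window, so the motifs were not shared by all genes of these pairs. RefSeq windows were matched for 30 of 35 G2 and M phase genes, and CCAAT was present in 25 of them (83.3%), against 56.5% of 23 S phase windows, 21.4% of 14 endothelial ones and 37.9% of all 27025. TTTGAA or TTCGAA was present in 76.7%, 17.4%, 21.4% and 19.4% of the same sets. The replication motif TTTGGCGC or TTTCGCGC was present in 3.33%, 21.7%, 0% and 0.833%, and the ETS motif CAGGAAG in 3.33%, 8.7%, 28.6% and 13%. A match is a run of letters in the window and not a measured site.

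With at most 2 pairs taken per gene, the 3 highest pairs joined Eef1a1, Fau and Hsp90ab1. Eef1a1 and Hsp90ab1 had a rho of 0.77 and 0.82, Eef1a1 and Fau 0.76 and 0.86, and Fau and Hsp90ab1 0.69 and 0.75. The thinned level of Eef1a1 had a rho of -0.80 and -0.84 with the cell's UMI total. With that total held by partial rank correlation, a setting added after the data were seen, the mean rho over both plates went from 0.79 to 0.43 for Eef1a1 and Hsp90ab1 and from 0.71 to 0.27 for Fau and Hsp90ab1. That of Birc5 and Ube2c went from 0.69 to 0.66. Over all pairs, 351 were then above 0.4 on both plates and 20 below -0.4.

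Endothelial and arterial genes were found together. Nrp1 and Gja4 had a rho of 0.59 on plate 1 and 0.46 on plate 2, and the arterial connexins Gja4 and Gja5 had 0.48 and 0.53, with both in 30 cells, Gja4 alone in 33 and Gja5 alone in 8. The genes most like Nrp1 were the tight junction gene Cldn5 (0.58 and 0.57), the adhesion gene Icam2 (0.52 and 0.55) and Id3 (0.56 and 0.50). Those most like Gja4 were Sparc (0.53 and 0.54), the endothelial surface gene Ecscr (0.50 and 0.52) and Gja5. Plvap was most like Crip1 (0.42 and 0.47), the caveolar Cavin3 (0.41 and 0.39) and Sparc (0.38 and 0.40). Cdh5 had weaker partners, with Id3 at 0.31 and 0.34, Ramp2 at 0.31 and 0.40 and the protease Ctsh at 0.34 and 0.28. Cdh5 and Plvap had 0.32 and 0.23, and Cdh5 and Pecam1 0.15 and 0.10. The summed UMIs of the endothelial list had a rho of 0.74 and 0.69 with the arterial list and of 0.73 and 0.74 with the matrix list.

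The rho of Runx1 with endothelial and blood genes was mostly near 0 or unlike on the 2 plates. With Cdh5 it was -0.09 and 0.10, with Plvap -0.06 and -0.34, with Sox17 -0.26 and -0.06, with Gja4 -0.08 and -0.20, with Spi1 0.08 and -0.28, with Myb 0.06 and -0.06, with Ptprc -0.06 and 0.00 and with its target Gfi1 -0.01 and 0.13. Both Cdh5 and Runx1 were found in 68 cells, Cdh5 alone in 24, Runx1 alone in 38 and neither in 13. The genes most like Runx1 were the kinase gene Prpf4b (0.34 and 0.40), the actin regulator of blood cells Was (0.44 and 0.31) and Trmt112 (0.30 and 0.35). The blood factor list and the endothelial list had a rho of -0.23 on plate 1 and 0.37 on plate 2, so the 2 plates gave opposite signs. For the 23 endothelial and 9 blood genes counted per cell above, the summed UMIs had a rho of -0.54 on plate 1 and 0.01 on plate 2.

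The 8 lowest pairs, again with at most 2 per gene, lay below -0.4 on both plates. Nrp1 and Coro1a, an actin regulator of leukocytes, had -0.55 and -0.49, and Cldn5 and the blood adaptor Samsn1 -0.55 and -0.50. Lst1, a leukocyte gene, had -0.48 and -0.47 with Sparc and -0.53 and -0.47 with the junction gene Myzap. Rac2, a small GTPase gene of blood cells, and Ramp2 had -0.47 and -0.45, and Prtn3 and S100a16 -0.53 and -0.47. H19 and Srgn, the granule proteoglycan, had -0.52 and -0.55, and the cyclin genes Ccnd2 and Ccnf -0.48 and -0.48. The endothelial list had a rho of -0.59 and -0.37 with the myeloid list and -0.31 and -0.40 with the G2 and M phase list. With the UMI total held, Coro1a and Nrp1 stayed at a mean of -0.53 and Ccnd2 and Ccnf went from -0.48 to -0.36.

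Igf2 and H19, imprinted neighbours, had a rho of 0.47 and 0.60, and each was found in 141 cells. Both had a negative rho with the UMI total (Igf2 -0.65 and -0.63, H19 -0.38 and -0.57), and with it held their mean rho went from 0.51 to 0.34. The genes most like Igf2 were Malat1 (0.65 and 0.61), the elongation factor subunit Eef1g (0.50 and 0.49) and Tpt1 (0.60 and 0.49), which also had a negative rho with the total. Igf2 and its RNA-binding protein gene Igf2bp1 had -0.18 and 0.00.

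**Figure D4:**
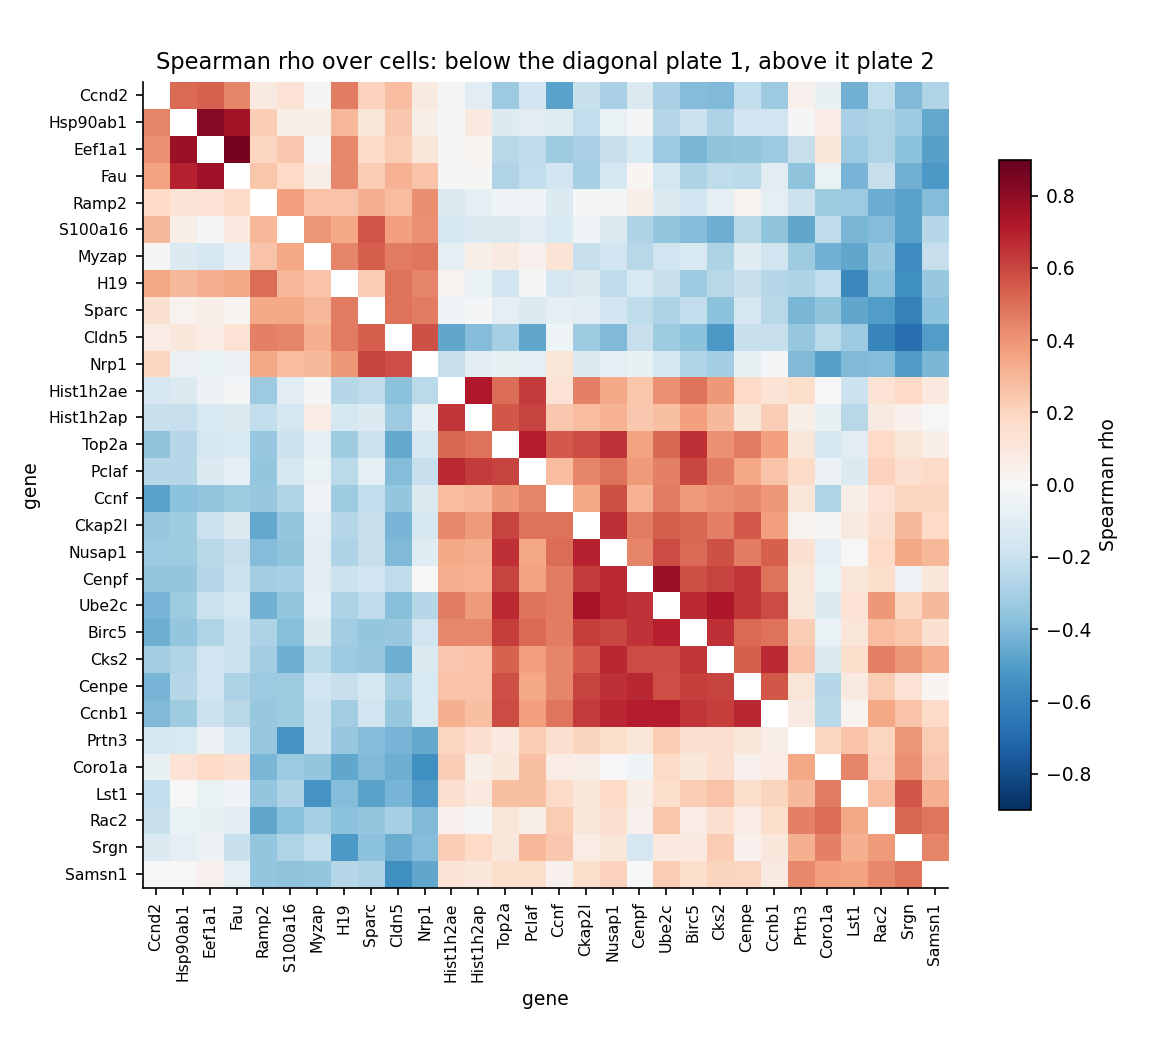
Spearman's rho over thinned AGM cells for each pair among the genes of the highest and lowest pairs, in colour, with plate 1 below the diagonal and plate 2 above it. Mitotic and histone genes form 1 red block, endothelial and growth genes another, and both plates show blue between the endothelial genes and the leukocyte genes from Prtn3 to Samsn1.

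**Figure D5:**
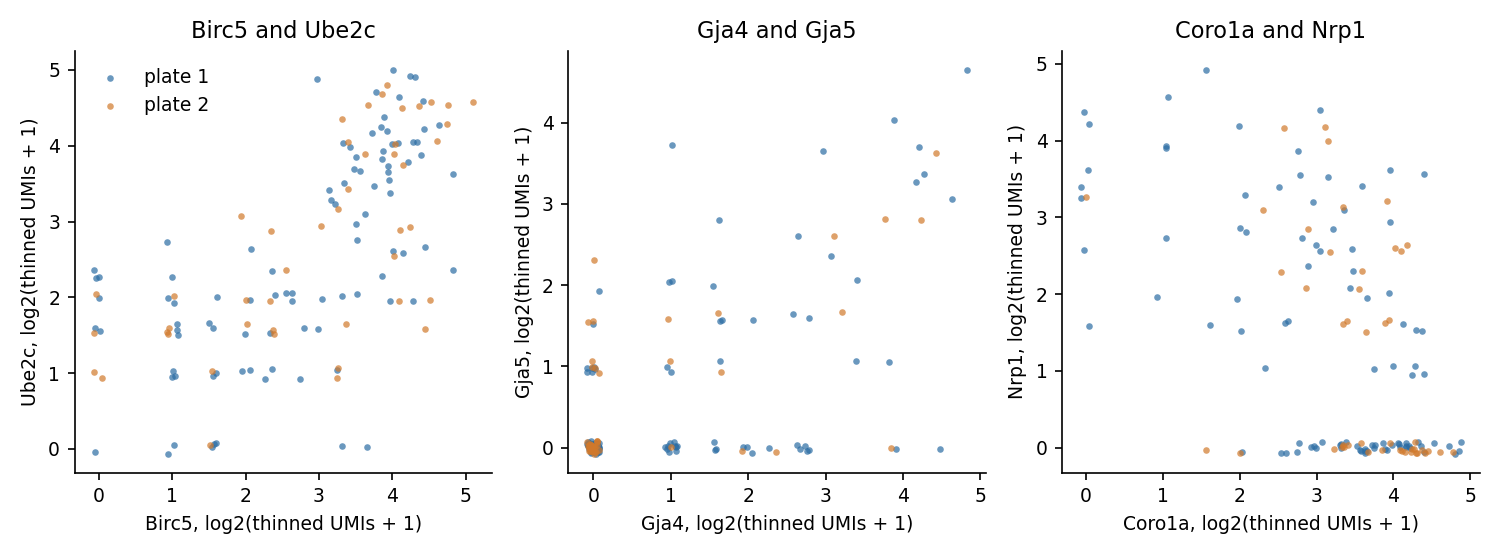
Thinned level, as log2(UMIs + 1) with a small random shift to part the points, of Birc5 and Ube2c, of Gja4 and Gja5 and of Coro1a and Nrp1, with 1 point per AGM cell, coloured by plate. Birc5 and Ube2c are high in the same cells, many cells lack both connexins, and Nrp1 is mostly at 0 where Coro1a is high.

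Against the other tissues, AGM cells were higher in 10 of 17 arterial, 12 of 17 fetal growth, 10 of 23 matrix and 15 of 35 G2 and M phase genes, and lower in 13 of 20 inflammatory and interferon genes. UMIs were summed over the cells of each origin and AGM was set against the mean of fetal liver and bone marrow by edgeR's quasi-likelihood test over 5 origin libraries, with a Benjamini-Hochberg adjusted p under 0.05 as the limit. AGM has 1 origin library, so its own spread was not measured, and tissue and origin cannot be told apart. Levels in this comparison are CPM of the summed counts after TMM scaling, with a tissue's level averaged over its origins. They therefore differ from the means over cells given above. Of 15472 genes tested, 550 (3.55%) were higher in AGM and 675 (4.36%) lower, so 44.9% of calls were higher; without TMM scaling it was 64.2%. The 6 marker genes were all higher, and had been proposed with such results known. The gene lists were also chosen with earlier results of these data known, so their counts are descriptions and not independent support. The median UMIs per kept cell were 29964 to 92658 on the other tissues' plates, below both AGM plates. Without plate 1 of fetal liver origin E6 the calls dropped to 155 and 169, and without plate 3 of bone marrow origin LL901 to 336 and 385.

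Igf2 stood at 1114 CPM in AGM, 43.5 and 87.3 in the fetal liver origins E1 and E6 and 0.119 and 0.186 in the bone marrow origins LL731 and LL901 (edgeR log2 difference 8.53 ± 0.31, adjusted p = 3.52e-13). Cdh5 stood at 104.4 CPM in AGM against 2.08 for fetal liver and 0 for bone marrow (adjusted p = 1.88e-09). Plvap stood at 199.3, 7.57 and 0 CPM (adjusted p = 4.62e-11). Nrp1 had 4113 UMIs in AGM and 1 in each other tissue, which is 146.7 CPM against 0.0442 for fetal liver and 0.0931 for bone marrow (adjusted p = 8.37e-11). Runx1 differed least, with 144.3 CPM in AGM against 38.4 for fetal liver and 38.2 for bone marrow (log2 difference 1.91 ± 0.29, adjusted p = 0.000156), and its adjusted p was 0.0389 without plate 1 of E6. All 6 kept their calls with any 1 plate left out, within the same data whose results were known when they were proposed. Leaving out 1 AGM plate still leaves the same single origin. When cells with at least 1 UMI were counted in place of UMIs, the adjusted p of Runx1 was 0.08 (log2 difference 0.82) and the other 5 kept their calls.

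Of 27 endothelial genes 17 were higher, among them Cldn5 (255.5 CPM in AGM against 6.25 for fetal liver and 0.0199 for bone marrow) and Ramp2 (436.1, 100.4 and 4.38). Of 17 arterial genes 10 were higher, including Hes1 at 276.8, 23.4 and 9.62 CPM and Gja5 at 48.9, 0.0442 and 0.518. Of 17 fetal growth genes 12 were higher, including H19 (728, 146.6 and 0.0993 CPM) and Igf2bp1 (326.4, 51.9 and 0.113). Of 35 G2 and M phase genes 15 were higher, such as Cenpf (307.6, 120.7 and 64.5), and of 30 S phase genes 3 were. Of 23 matrix genes 10 were higher, with Sparc at 364.7, 3.93 and 2.98 CPM. The members not counted as higher did not pass the test. Against a median log2 difference of -0.03 over all tested genes, the medians were 2.40 for the endothelial, 5.43 for the arterial, 2.33 for the fetal growth, 3.06 for the matrix and 1.20 for the G2 and M phase list. With genes at 0 in a tissue set to their bound they were 1.97, 4.07, 1.94, 2.16 and 1.06, against -0.11 over all. Without plate 1 of E6 the mitotic count went from 15 to 3 and the matrix count from 10 to 5, and without plate 3 of E1 they were 9 and 6. The mitotic count was 23 without origin LL731 and 28 without LL901, and the S phase count was 0 to 5 with a plate or origin left out. Without plate 3 of LL901 the matrix count was 6.

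Of 24 immediate early genes, switched on fast by outside stimuli, 10 were higher and 1, Myc, lower. Jun stood at 201.2 CPM in AGM against 23.95 for fetal liver and 14.1 for bone marrow, and Fos at 30.4, 0.0442 and 0.113. Without plate 1 of E6 the count went from 10 to 2. Of 12 smooth muscle genes 2 were higher, Acta2 and Myl9, and the list's summed level was 146 CPM in AGM against 2.96 to 12 in the other origins. That summed level is in CPM without TMM scaling. As means over cells, Acta2 stood at 74 CPM and Myl9 at 65.1, while 8 of the 13 members with AGM UMIs were under 1 CPM. The list's part in the other differences was not tested. Hbb-y, found across plate 1, was higher in AGM with 1750 UMIs against 0 in fetal liver and 1 in bone marrow (adjusted p = 1.69e-08), and 0.0202 without AGM plate 1.

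Of 20 inflammatory and interferon genes 13 were lower and 1, Bst2, higher. B2m, the light chain of class I molecules, stood at 864.1 CPM in AGM against 2574 for fetal liver and 4448 for bone marrow, and H2-K1, a class I heavy chain, at 106.7, 602 and 1758. The class II chaperone Cd74 had 0 AGM UMIs against 591 of fetal liver and 4150 of bone marrow, which is 21 and 161 CPM. Against a floor of 3 AGM UMIs (0.107 CPM), Cd74 was at least 196-fold lower in AGM than in fetal liver and 1507-fold lower than in bone marrow. H2-Q7 stood at 7.01 CPM in fetal liver and 471 in bone marrow, so AGM was at least 65.6-fold and 4401-fold lower. H2-DMb1 stood at 13 and 96 CPM (at least 121-fold and 897-fold), and H2-Q6 at 0.899 and 128 CPM (at least 8.4-fold and 1196-fold). H2-Q6 and H2-Q7 are near-identical and can share reads. Myl10, a myosin light chain, had 0 AGM UMIs as well, with 29.8 and 587 CPM in the other tissues (at least 278-fold and 5483-fold). Otos had 19.7 and 111 CPM there (at least 184-fold and 1037-fold). Sdsl had 0.524 and 178 CPM (at least 4.9-fold and 1667-fold), and its call was lost without plate 3 of E1.

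Blood factors were mostly not told apart. Of 20, Runx1 was higher and Lmo2 (119.8 CPM against 425.3 and 808.2), Meis1 and Hlf lower, and without plate 1 of E6 none of the 3 remained lower, while 5 factors were lower without origin LL901. Spi1 stood at 368.2, 356.4 and 235.7 CPM (log2 difference 0.35 ± 0.22, adjusted p = 0.431). Of 20 blood and stem cell surface genes 6 were higher and 5 lower, with Ptprc at 27.5, 68.1 and 106 CPM, and the counts were 3 and 3 without plate 1 of E6. Without plate 3 of LL901, 3 were higher.

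The remaining lists held 0 to 4 calls each. Of 19 hypoxia and glycolysis genes, the glucose transporter Slc2a1 was higher and Ndrg1 and Pdk1 lower, and of 15 housekeeping genes B2m and Rps18 were lower. Of 13 myeloid genes Mpo (265.8 CPM in AGM, with 26 and 14.1 in fetal liver and marrow) and Fcgr3 were higher and Prtn3 and Lyz2 lower. Among 14 erythroid genes Hbb-y was higher and Hba-a1 and Car2 lower, the megakaryocyte gene Gp9 was lower, among 10 lymphoid genes Cd79b was lower, and among 6 venous genes Lyve1 was higher. Without plate 1 of E6, the calls left, higher and lower, were 0 and 0 for the hypoxia, venous and lymphoid lists, 1 and 1 for the myeloid, 1 and 2 for the erythroid, and 0 and 1 each for the housekeeping and megakaryocyte lists. Of 7 epithelial, gonad and neural crest genes edgeR called 0, with 2 (Krt8 and Elavl4) at an unadjusted p under 0.05, and DESeq2 called 1 lower.

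Many genes with a wide spread within AGM also differed between AGM and the other tissues. Of the 26, 19 were higher in AGM and 2, Ifitm1 and Lyz2, lower, against 9.38% higher and 5.06% lower among the 3165 genes from which they came. Leaving out 1 plate at a time gave 13 to 20 higher among the 26. AGM cells entered both measures, so the spread and the difference are not independent.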

How the data were processed

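The deposited tables, 1 per plate of 96 wells, hold the authors' raw UMI counts for each gene symbol. The submitters' processing notes list SAMtools, featureCounts and UMI-tools and the mm10 build. No source used here gives the annotation or the strand setting, so reads of overlapping and antisense genes cannot be told apart. Of the AGM plates' symbols 98.7% matched the mouse gene names used. Gene positions are GENCODE's for GRCm38, the build of mm10. The members and the 20 gene lists were chosen with earlier results of these data known.

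Levels are CPM of unthinned counts, per cell within AGM unless stated, and of TMM-scaled summed counts in the comparison of tissues. Spread, pairs and shares of cells with a UMI, where thinning is named, used cells thinned without replacement to 20000 UMIs, and log2(UMIs + 1) for pairs. A gene counted as found in a cell had at least 5 unthinned UMIs. The running median of the Fano factor spans 201 genes. Named genes were the 6 markers, the 12 most abundant, the 12 widest and 8 narrowest, the 12 highest and 8 lowest pairs (at most 2 per gene), the listed pairs found in at least 10% of thinned cells, the 2 most abundant members and the widest of each list, the 8 genes most confined to 1 cell, the 8 largest differences each way, and the 3 genes most like each marker. Other list members named, and Hbb-y, Ccl3 and Cpa3 as genes found in most cells of 1 plate only, were chosen after their values were seen. Listed pairs numbered 45, of which 37 met the limit.

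Counts summed per origin (1 AGM, 2 fetal liver, 2 bone marrow) were tested in edgeR 4.0.16 (R 4.3.3) with TMM scaling and filterByExpr, with 2 residual degrees of freedom. An error after a log2 difference was derived from the F statistic and only approximates a standard error. AGM was assumed to vary like the other tissues. DESeq2 1.42.0 and limma 3.58.1 were alternatives, as were other thinning depths, scalings and left-out plates. Python 3.11.15 with scipy 1.17.1 did the rest. Scripts were tested on simulated data. Wells were taken as single cells and no doublet caller was run.
Some members of these lists are not reported here.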

Additional observations from a re-analysis of the deposited data

How the results depend on the processing

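The 550 higher and 675 lower genes became 751 and 418 without TMM scaling, 735 and 778 with no filter on low counts, and 505 and 958 by DESeq2. With plates as libraries in limma and the origin as a random effect they became 2015 and 1130. Counting cells with at least 1 UMI in place of UMIs gave 575 and 1160, and cells with at least 5 gave 1112 and 1220. Leaving out a whole origin, added after the data were seen, gave 1388 and 1394 without LL731, 1192 and 1279 without LL901, 446 and 507 without E1 and 396 and 464 without E6. Leaving out 1 plate gave 155 to 597 higher and 169 to 869 lower. When cells with at least 1 UMI were counted, the log2 difference changed sign for Egfl7 (-0.64), Spi1 (-0.53), Lyl1 (-0.65), Procr (-0.25), Dut (-0.51), Hmgb2 (-0.76) and Birc5 (-0.13), and with at least 5 UMIs for Lyl1 (-0.70) and Hmgb2 (-0.94). Each of these genes had at least 1 UMI in 142 or 143 of the 143 AGM cells, near the most that a count of cells can reach. The cause of the sign changes was not tested. Sign changes between values that both missed the limit were not listed. Of the other log2 differences, 1 per named gene and setting, 1840 stayed on their side of the limit, 110 passed it and 91 no longer did.

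Genes found in at least 50% of cells numbered 2448, against 4941 without thinning, 1766 at 10000 UMIs and 3469 at 50000. They were 2447 to 2608 with 1 AGM plate left out. The 26 wide and 6 narrow genes became 11 and 1 at 10000 UMIs, 57 and 42 at 50000 and 50 and 27 in CPM. With 1 AGM plate left out, where the remaining plate alone decides, they became 78 to 104 wide and 16 to 47 narrow. The 776 high and 35 low pairs became 290 and 14 at 10000 UMIs, 1479 and 124 at 50000, 1959 and 172 in log2(CPM + 10), and 351 and 20 with the UMI total held. On 1 plate alone they were 2889 to 31484 and 605 to 17788. The cause of these shifts was not tested. No paired analysis was possible because plates were summed per origin, so their shared numbers pair nothing.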
